A study of Mus musculus with 6 samples.

Results

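The expression of 8 genes known from hair cells and their bundles was followed in mouse cochlear organoids kept in soft or in stiff gels. The genes are Myo6, Myo7a, Ush1c, Calb2, Espn, Clrn1, Ikzf2 and Gfi1. They were taken by name, without a filter on expression, from a table of 15016 genes, which lists all 8. The organoids grew from wild-type (WT) cochlear progenitor cells and were not altered genetically. Both groups had first been expanded with EGF, bFGF, IGF, CHIR99021, valproic acid, 2-phospho-L-ascorbic acid and 616452, and then received the same differentiation medium. It held CHIR99021, which inhibits the kinase GSK3, and LY411575, which inhibits gamma-secretase and so blocks Notch signalling. At that stage they were divided between hydrogels of either stiffness, with 3 libraries from soft and 3 from stiff gels. Age and number of donor animals, gel stiffness and time in the gel are not given in the sources used here. Whether replicates were separate cultures is also not stated. A p-value therefore measures the spread among these libraries and no more, and that spread may be technical.

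Hair cells are the mechanoreceptors of the inner ear. Each carries a bundle of stereocilia, which are enlarged microvilli with a core of parallel actin filaments, joined by fine links to their neighbours. Deflection of the bundle pulls on these links and opens transduction channels. Hair cells arise from prosensory cells, and blocking Notch signalling is a common way to favour that fate in culture. Several proteins of the bundle are also used in the microvilli of other epithelia, so their RNA alone does not mark a hair cell.

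Depth was 16108470 to 17899391 reads per library, rebuilt from the deposited values. Soft replicate 1 stood apart on the principal components of all genes. On the first, with 59.5% of the variance, it lay at -2.05, against -16.8 and -19.6 for the other soft libraries and 8.27 to 17.9 for the stiff libraries. Results without it are therefore also given, with the gene for Ush1c, Calb2 and Ikzf2 and in the last section for the others.

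Of the hair cell markers outside the 8 genes that could be read, Otof, Barhl1 and Cdh23 were at or near 0, and Slc17a8, Tmc1 and Pcdh15 were low. The 8 genes ranged from low to high, with Ush1c above 85.2% and Myo6 above 79.1% of all genes by mean FPKM. Otof, which encodes the calcium sensor of the hair cell synapse, had 1 to 7 reads per library. Barhl1, a transcription factor of hair cells, had 0 to 3 reads. Cdh23, which encodes the upper part of the tip link, had 2 to 24 reads and at most 0.114 FPKM. Slc17a8 had 33 to 62 reads per library (0.391 to 0.816 FPKM), Tmc1 had 24 to 33 and Pcdh15 had 77 to 117 (0.236 to 0.398 FPKM). FPKM are fragments scaled to gene length and to the depth of the library, so they allow levels to be compared between genes. Atoh1 and Pou4f3, the transcription factors that define the hair cell lineage, and Slc26a5, the outer hair cell motor gene, were not analysed here. The 8 genes are therefore called hair bundle and hair cell associated genes, and no statement is made on the presence of hair cells.

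The stretch of 250 bases before the RefSeq start (build GRCm38.p6) is printed for 3 bundle genes, as they stand for higher, lower and overlapping levels in stiff gels. The 2 motifs below were searched on both strands, and a match is in capitals. CAGCTG is an E-box of the kind that basic helix-loop-helix factors such as ATOH1 bind, and GGAATG is the core bound by the TEAD partners of YAP. No matches overlap in the printed stretches. Among 32851 RefSeq promoters of the same length, 13.0% held CAGCTG and 12.6% held GGAATG.
Ush1c, chr7:46238491-46238740, minus strand: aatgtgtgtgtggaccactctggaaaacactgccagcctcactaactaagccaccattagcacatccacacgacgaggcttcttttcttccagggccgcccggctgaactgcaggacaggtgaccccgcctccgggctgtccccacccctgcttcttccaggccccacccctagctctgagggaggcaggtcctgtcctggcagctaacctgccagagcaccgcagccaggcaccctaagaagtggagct
Espn, first listed start, chr4:152152390-152152639, minus strand: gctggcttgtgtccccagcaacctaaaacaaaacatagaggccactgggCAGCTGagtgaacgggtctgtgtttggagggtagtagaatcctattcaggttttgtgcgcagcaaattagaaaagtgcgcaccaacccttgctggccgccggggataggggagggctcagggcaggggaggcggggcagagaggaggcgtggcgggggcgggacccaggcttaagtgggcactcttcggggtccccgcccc
Myo6, chr9:80164784-80165033, plus strand: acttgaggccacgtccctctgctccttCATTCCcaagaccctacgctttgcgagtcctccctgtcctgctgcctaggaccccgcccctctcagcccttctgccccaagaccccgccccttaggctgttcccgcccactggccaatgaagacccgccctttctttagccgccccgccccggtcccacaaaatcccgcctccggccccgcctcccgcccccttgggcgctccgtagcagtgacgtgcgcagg
In the Ush1c stretch 0 matches to either motif were found. In the Espn stretch 1 E-box begins 201 bases before the start. The Myo6 stretch holds 1 match to the TEAD core, read on the opposite strand as CATTCC, 223 bases before the start. RefSeq starts were matched for 6 of the 8 genes. A match is a description of letters and not a binding site.

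Of the 8 genes, Ush1c alone was called between the gels, at a 1.52-fold higher mean in stiff gels. Calls rest on limma on log2(FPKM + 1), with a Benjamini-Hochberg adjustment over all 15016 genes and a threshold of 0.05. In that fit 3.39% of all genes were called, 1.92% higher and 1.47% lower in stiff gels. The count of 1 of 8 is too small to set the 8 genes apart from that background. The groups did not overlap for 5 of the 8 genes, 4 higher and 1 lower, against 24.8% of all genes. Among the 4 higher, Gfi1 and Clrn1 had at most 9 and 18 reads per library. For Gfi1 the non-overlap came from depth, as soft replicate 1 and stiff replicate 2 each had 3 reads. Before adjustment 4 of the 8 had a p under 0.05, against 20.3% of all genes. Non-overlap held for 14.5% of all genes in the higher and 10.3% in the lower direction. In the authors' deposited table Ush1c and Calb2 have a q under 0.05, both higher, against 8.12% of all genes (3.44% higher and 4.68% lower). The median log2 difference was 0.10 over the 8 genes and 0.02 over all genes. The RNA came from whole organoids, so a difference in the number of cells of a type and a difference in RNA per cell cannot be told apart.

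**Figure D1:**
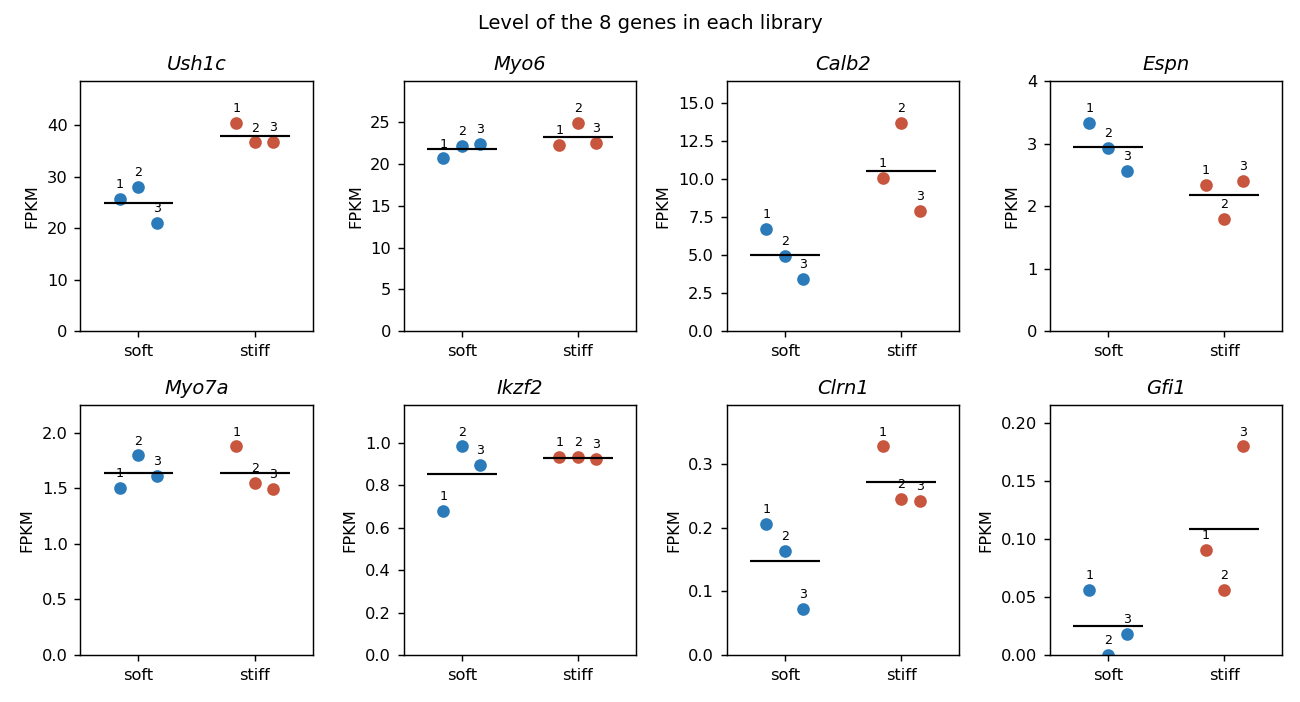
Level of each of the 8 genes in FPKM (linear axes from 0, scaled per gene) in the soft and stiff libraries, numbered by replicate, with the group mean as a line. The Ush1c points do not overlap between the gels, while those of Myo6, Myo7a and Ikzf2 do.

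Levels of the 8 genes spanned a wide range. In soft gels the order of mean FPKM was Ush1c, Myo6, Calb2, Espn, Myo7a, Ikzf2, Clrn1 and Gfi1. The first 2, Ush1c and Myo6, overlapped there. In stiff gels the order was the same. Ush1c lay clear of Myo6 in that group, while Espn and Myo7a overlapped. By mean FPKM over the 6 libraries, Ush1c lay above 85.2% of all genes of the table and Myo6 above 79.1%. Calb2 lay above 53.0%, Espn above 32.3% and Myo7a above 27.0%. Ikzf2, Clrn1 and Gfi1 lay above 21.5%, 11.3% and 4.53%.

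Ush1c encodes harmonin, a PDZ-domain scaffold that anchors the tip link in the stereocilium and also serves the brush border of the gut (chr7:46195350-46238503, minus strand, build mm10, GENCODE M21). Its level was 25.7, 28.1 and 21.0 FPKM in soft replicates 1 to 3 and 40.5, 36.6 and 36.7 FPKM in stiff replicates 1 to 3. Every stiff library lay above every soft library, and soft replicate 3 was the lowest. The means were 24.9 ± 3.57 and 37.9 ± 2.20 FPKM (SD, n = 3 each), resting on 5258 and 7711 reads. The difference on the log2(FPKM + 1) scale was 0.59 ± 0.10 (SE; 95% interval 0.36 to 0.83; limma adjusted p = 0.0294). A log2 fold change of 0.58 with q = 3.62e-06 stands in the authors' deposited table. The call held without soft replicate 1 (limma adjusted p = 0.0215). It was lost without soft replicate 2 (0.0854), soft replicate 3 (0.0613), stiff replicate 1 (0.109), stiff replicate 2 (0.0760) or stiff replicate 3 (0.0948), at log2 differences of 0.48 to 0.68. With limma-voom, which weights log2 counts by their precision, on the rebuilt reads it was called with all libraries (adjusted p = 0.00583) and whichever library was left out (0.000899 to 0.0434). Of its 3849 merged exon bases, 120 are shared with Gm9860 on the opposite strand, and the library kit does not mark the strand.

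Myo7a encodes myosin VIIA, the motor that binds the harmonin complex at the upper end of the tip link (chr7:98051060-98119524, minus strand). Its level was 1.50, 1.80 and 1.61 FPKM in soft and 1.88, 1.54 and 1.49 FPKM in stiff replicates 1 to 3. The groups overlapped in full, with means of 1.64 ± 0.148 and 1.64 ± 0.207 FPKM (SD, n = 3 each). The log2 difference had a 95% interval of -0.19 to 0.19 (limma adjusted p = 0.998). The ratio of Ush1c to Myo7a within a library was 17.1, 15.6 and 13.0 in soft and 21.6, 23.7 and 24.5 in stiff gels. The ratios of the groups did not overlap. An exact two-sided permutation test of this ratio gave p = 0.1, the smallest that 3 against 3 libraries allow (0.125 adjusted over 5 pairs of the 8 genes). With that floor no pair could reach the threshold used for calls, so the test cannot decide whether any of the 5 ratios differs. Ratios with Ush1c or Calb2 as numerator also restate, at least in part, the differences of these genes, and are given as a description only.

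Myo6 encodes myosin VI, which moves towards the minus end of actin filaments and anchors the base of stereocilia. It also works in endocytosis in many cell types (chr9:80165031-80311729, plus strand). Its level was 20.7, 22.2 and 22.5 FPKM in soft and 22.3, 25.0 and 22.6 FPKM in stiff replicates 1 to 3. The groups overlapped, and stiff replicate 2 was the highest. The log2 difference was 0.09 ± 0.06 (SE; 95% interval -0.06 to 0.24; limma adjusted p = 0.495). The ratio of Ush1c to Myo6 was 1.24, 1.26 and 0.937 in soft and 1.81, 1.47 and 1.63 in stiff gels, with no overlap (exact two-sided permutation p = 0.1, 0.125 adjusted over 5 pairs). The ratio of Myo6 to Myo7a overlapped between the gels, at 13.4 ± 0.864 and 14.4 ± 2.22 (SD, n = 3 each; exact two-sided permutation p = 0.5).

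Espn encodes espin, which bundles the actin of stereocilia and microvilli (chr4:152120331-152152371, minus strand). Its level was 3.34, 2.93 and 2.57 FPKM in soft and 2.35, 1.80 and 2.41 FPKM in stiff replicates 1 to 3. Every stiff library lay below every soft library, by a narrow margin between soft replicate 3 and stiff replicate 3. The log2 difference of -0.31 ± 0.11 (SE; 95% interval -0.56 to -0.06) did not pass the adjusted test (limma adjusted p = 0.170). In the authors' deposited table the log2 fold change is -0.46 with q = 0.102, also above 0.05. The ratio of Ush1c to Espn was 8.48 ± 0.979 in soft and 17.6 ± 2.55 in stiff gels (SD, n = 3 each; exact two-sided permutation p = 0.1, 0.125 adjusted over 5 pairs).

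Clrn1 encodes clarin 1, a membrane protein needed for bundle integrity and for the hair cell synapse (chr3:58844028-58885340, minus strand). Its level was 0.206, 0.163 and 0.0725 FPKM in soft and 0.328, 0.245 and 0.242 FPKM in stiff replicates 1 to 3. These rest on 11, 9 and 4 reads and on 18, 13 and 12 reads, so counting error is large. The reads per depth had a ratio of 1.86 (95% interval 1.10 to 3.21 from the exact Clopper-Pearson limits, for counting error only). The difference did not pass the test (limma adjusted p = 0.201; 0.304 with limma-voom on rebuilt reads).

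Calb2 encodes calretinin, a calcium buffer of hair cells that is also common in neurons (chr8:110137502-110168210, minus strand). Its level was 6.73, 4.94 and 3.43 FPKM in soft and 10.1, 13.7 and 7.88 FPKM in stiff replicates 1 to 3. Soft replicate 1 was the highest soft library and stiff replicate 3 the lowest stiff library, and the groups did not overlap. The means of 5.03 ± 1.65 and 10.5 ± 2.94 FPKM (SD, n = 3 each) differ 2.1-fold, the largest ratio among the 5 genes with a mean of at least 1 FPKM. The log2 difference of 0.94 ± 0.23 (SE; 95% interval 0.40 to 1.49) did not pass the test over all genes (limma adjusted p = 0.0748). It passed without soft replicate 1 (0.0219) and, with all libraries, where genes under 1 FPKM in both groups were left out before the adjustment (0.0409) or limma-voom was used on rebuilt reads (0.0283). It did not pass in limma when any 1 of the other 5 libraries was left out, with adjusted p from 0.103 to 0.205. The limma-voom call was lost in 4 of 6 fits with a library left out, without soft replicate 2 (0.124), soft replicate 3 (0.116), stiff replicate 1 (0.102) or stiff replicate 2 (0.0714). Of all genes 9.68% were called without soft replicate 1 (4.93% higher), 5.81% with that filter (3.13% higher) and 6.62% with limma-voom (3.1% higher). In the authors' deposited table the log2 fold change is 1.05 with q = 0.000235. The ratio of Calb2 to Espn was 1.68 ± 0.340 in soft and 5.05 ± 2.26 in stiff gels (SD, n = 3 each; exact two-sided permutation p = 0.1, 0.125 adjusted over 5 pairs).

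**Figure D2:**
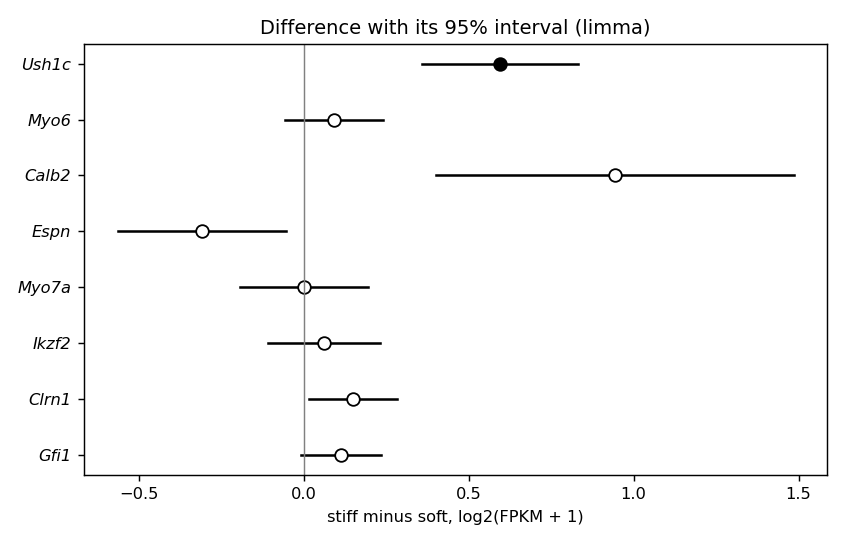
Stiff minus soft difference of each gene on the log2(FPKM + 1) scale (x axis), with its 95% interval from limma as a line. The filled point, Ush1c at 0.59, is the gene called at adjusted p under 0.05, and the Calb2 interval, 0.40 to 1.49, is the widest on this scale. The added 1 shrinks differences and intervals of genes far below 1 FPKM. By limma-voom on rebuilt reads the log2 differences were 2.07 ± 0.846 for Gfi1, 0.93 ± 0.471 for Clrn1 and 1.07 ± 0.248 for Calb2 (SE).

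**Figure D3:**
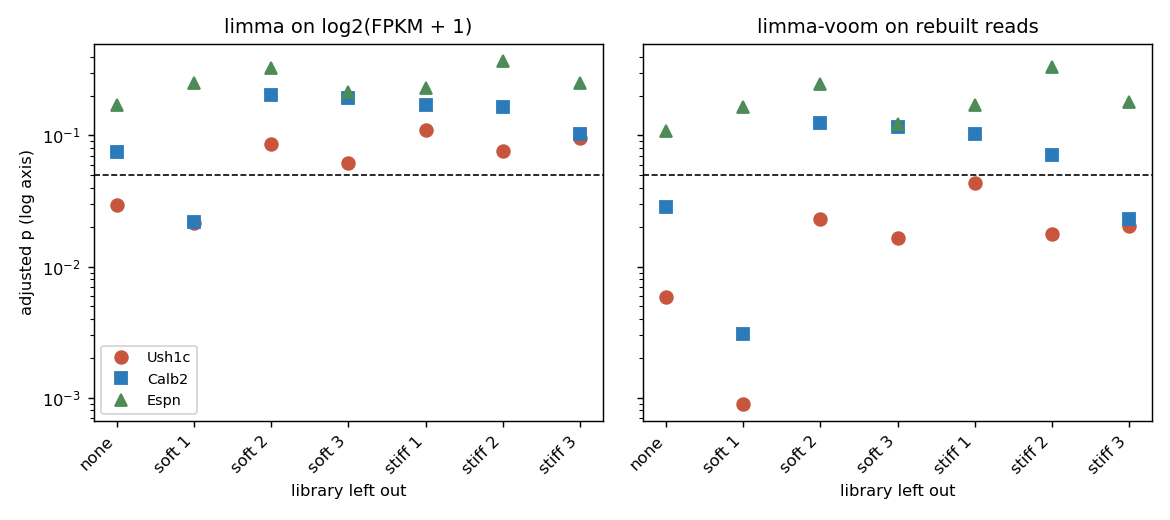
Adjusted p (log axis) of Ush1c, Calb2 and Espn with all libraries and with each library left out, by limma on log2(FPKM + 1) at left and limma-voom on rebuilt reads at right. The dashed line is 0.05. Ush1c lies under it throughout at right, and at left only with all libraries or without soft replicate 1.

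The transcription factors of the set were low. Ikzf2 encodes Helios, a zinc finger factor of outer hair cells and of some T cells (chr1:69531214-69687245, minus strand). Its level was 0.680, 0.984 and 0.897 FPKM in soft and 0.934, 0.935 and 0.925 FPKM in stiff replicates 1 to 3. The stiff libraries lay within the range of the soft libraries, of which soft replicate 1 was the lowest. The log2 difference was 0.06 (95% interval -0.11 to 0.23; limma adjusted p = 0.708). Without soft replicate 1 it was -0.00693. Its exons share 144 bases with Gm29114 on the opposite strand.

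Gfi1 encodes a zinc finger repressor needed for hair cell survival and also active in blood cells (chr5:107716657-107726036, minus strand). It had 3, 0 and 1 reads in soft and 5, 3 and 9 reads in stiff replicates 1 to 3. Soft replicate 1 and stiff replicate 2 thus had equal reads, and their FPKM of 0.0557 and 0.0562 differ through depth alone. The sums of 4 and 17 reads gave a ratio per depth of 4.42 with a 95% interval of 1.44 to 18 (exact Clopper-Pearson limits, for counting error only). Over libraries the difference did not pass the test (limma adjusted p = 0.281; 0.189 with limma-voom on rebuilt reads). Its exons share 101 bases with A430072P03Rik on the opposite strand.

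**Figure D4:**
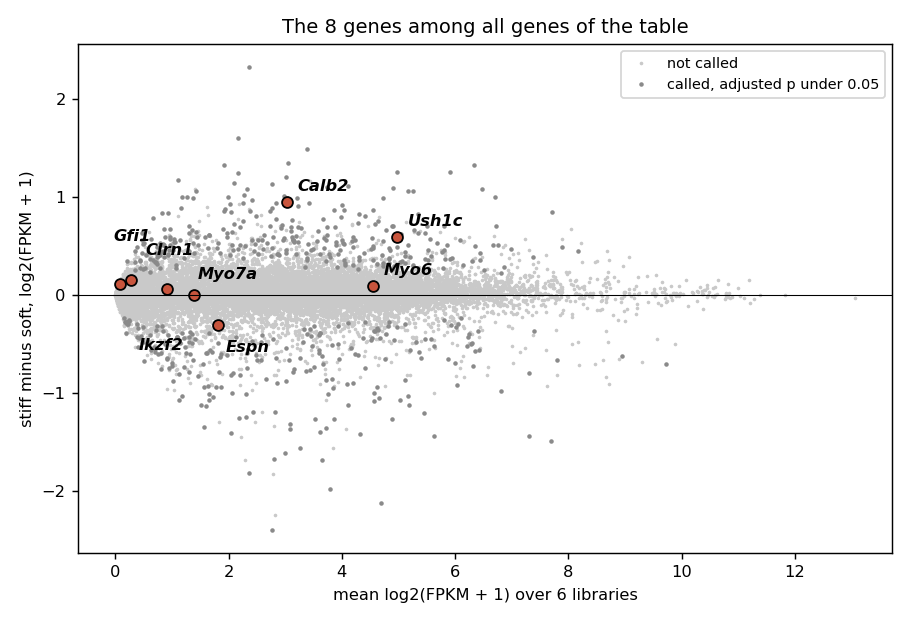
Mean log2(FPKM + 1) over the 6 libraries (x axis) against the stiff minus soft difference (y axis) for 15016 genes, with called genes darker and the 8 genes in colour. Ush1c and Calb2 lie at 0.59 and 0.94, Espn lies at -0.31, and the other 5 lie within 0.15 of 0. Gfi1 and Clrn1, far below 1 FPKM, are drawn towards 0 by the added 1.

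The other genes of the hair cell programme were read from 5 lists that left out the 8 genes. Of 94 names, 67 were measured and 27 were not analysed here. Of the 67, 2 rose and 1 fell in stiff gels, against 3.39% of all genes called, and their median log2 difference was 0.02, as over all genes. By limma-voom on rebuilt reads 3 were higher (Gnai3, Isl1 and Gata3) and 4 lower (Pls3, Myo1c, Whrn and Kcnma1), against 6.62% of all genes called. Over all genes the balance turned likewise, from 288 higher and 221 lower by limma to 466 higher and 528 lower by limma-voom. A mean over the 6 libraries of at least 1 FPKM was reached by 36 of them.

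Among link proteins and scaffolds of the Usher complex 0 of 9 were called (limma; 2 at an unadjusted p under 0.05, and 1, Whrn, called by limma-voom on rebuilt reads). The groups did not overlap for 2 of the 9 in the higher and 3 in the lower direction, against 14.5% and 10.3% of all genes. Pcdh15, which encodes the lower part of the tip link, was at 0.250 ± 0.0171 and 0.347 ± 0.0449 FPKM (SD, n = 3 each; limma adjusted p = 0.246). Cdh23 was lower, with 9, 24 and 16 reads in soft and 2, 8 and 5 reads in stiff replicates 1 to 3. It was not called (adjusted p = 0.388 by limma and 0.137 by limma-voom). Cib2, a calcium-binding partner of the transduction channel, was the highest of the list at 5.95 ± 1.21 and 6.44 ± 0.332 FPKM (SD, n = 3 each; limma adjusted p = 0.696). Among transduction channel genes 0 of 3 were called (limma; 0 at an unadjusted p under 0.05 and 0 by limma-voom). Tmc1, a pore subunit, had 24 to 33 reads per library and 0.339 to 0.419 FPKM, with overlapping groups. Tmie, another subunit and the highest of that list, was at 0.396 ± 0.143 and 0.534 ± 0.0739 FPKM (SD, n = 3 each; limma adjusted p = 0.385).

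Among 26 genes of the actin core, its myosins and their regulators 1 rose and 1 fell. Gnai3, an inhibitory G protein subunit that positions the bundle and acts in many cells, rose from 107 ± 8.17 to 149 ± 12.3 FPKM (SD, n = 3 each; limma adjusted p = 0.0294). Baiap2l2, a membrane-shaping protein of stereocilia tips, fell from 0.568 ± 0.0630 to 0.253 ± 0.0794 FPKM (SD, n = 3 each; limma adjusted p = 0.0390). Baiap2l2 rests on 34 to 41 reads in soft and 11 to 20 reads in stiff libraries, and it was not called by limma-voom on rebuilt reads (adjusted p = 0.0501). The actin bundling gene Pls3 and the myosin gene Myo1c had log2 differences of -0.49 and -0.46. With all genes and libraries they were called lower by limma-voom and not by limma (adjusted p = 0.0201 and 0.0283, against 0.0681 and 0.0860 by limma). Limma called both without soft replicate 1, and Pls3 also with either filter at a mean of 1 FPKM and with a replicate block. Actb, cytoplasmic beta actin and the highest of the list, had a limma adjusted p of 0.556.

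Among 12 transcription factors and fate regulators 1 rose and 0 fell. Isl1, a LIM homeodomain factor of the prosensory domain and of ganglion neurons, rose from 16.6 ± 3.48 to 30.7 ± 1.56 FPKM (SD, n = 3 each; limma adjusted p = 0.0254). Gata3, a factor of the prosensory domain, had a log2 difference of 0.56. With all libraries it was called by limma-voom (adjusted p = 0.0312) and not by limma (0.0903). Limma called it with a replicate block and without soft replicate 1. Among 17 synapse, channel and calcium buffer genes 0 were called (limma; 4 at an unadjusted p under 0.05, and 1, Kcnma1, called by limma-voom). Cib1, a broadly used calcium-binding protein, was the highest of these. Without soft replicate 1, 14 of the 67 genes were called, 8 higher and 6 lower, with Gnai3, Baiap2l2 and Isl1 among them. In that fit 9.68% of all genes were called, and the difference was not tested. Without soft replicate 3 the count was 1, Isl1. Without soft replicate 2, stiff replicate 1, stiff replicate 2 or stiff replicate 3 it was 0. Few of the 15016 genes were called in those fits, 27 without soft replicate 3 and 8 without soft replicate 2. Without stiff replicate 1, 2 or 3 the counts over all genes were 4, 40 and 19, so a count of 0 does not set the 67 apart.

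**Figure D5:**
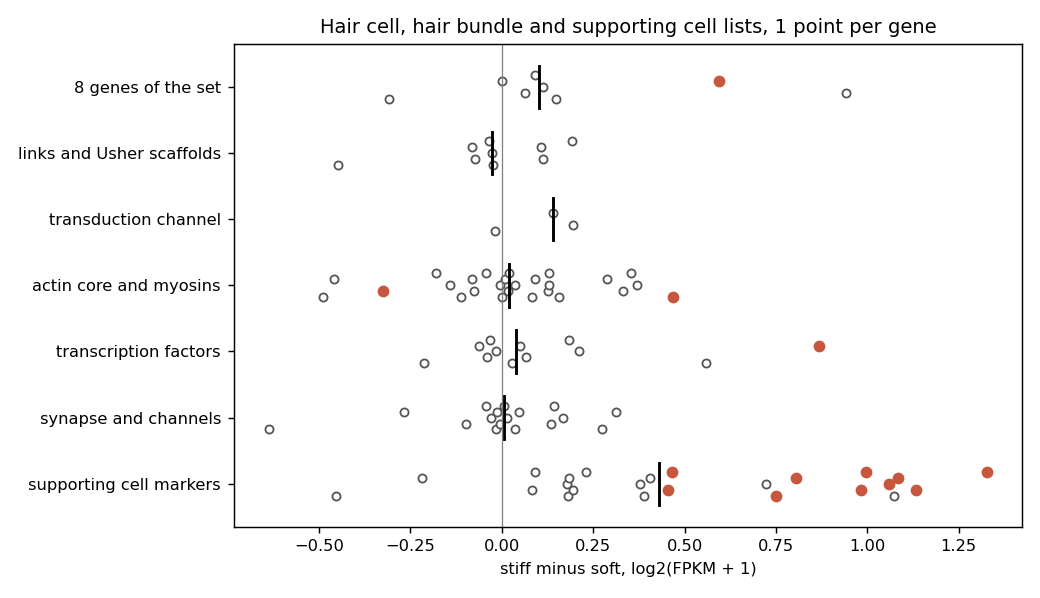
Stiff minus soft difference on the log2(FPKM + 1) scale (x axis) of each measured gene of 7 lists (rows), with called genes filled and the list median as a bar. The medians of the 5 other hair cell and bundle lists lie between -0.03 and 0.14, and that of the supporting cell markers lies at 0.43.

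Markers of other cell types were read beside the 8 genes. Of 24 measured supporting and prosensory cell markers 10 rose and 0 fell (limma), with a median log2 difference of 0.43. At an unadjusted limma p under 0.05, 17 were higher and 2 lower, and limma-voom called 12 higher and 0 lower. Beside these counts and those of the lists below, limma called 3.39% of all genes (1.92% higher and 1.47% lower). Of all genes 6.62% were called by limma-voom, and 20.3% had an unadjusted limma p under 0.05. The summed level of the 24 markers was 1452 to 2041 FPKM in soft and 2160 to 2222 FPKM in stiff libraries. Most of it was Epyc, S100a1 and Epcam, which limma did not call (adjusted p = 0.643, 0.0903 and 0.178). Limma-voom called S100a1 higher (adjusted p = 0.0305), and Epyc and Epcam overlapped between the gels. Sox2 rose from 1.47 ± 0.797 to 5.03 ± 0.615 FPKM and Lgr5 from 26.2 ± 7.93 to 54.3 ± 5.97 FPKM (SD, n = 3 each; limma adjusted p = 0.0249 and 0.0360). Soft replicate 3 was the lowest library for Sox2 and Lgr5, as it was for Ush1c and Calb2. It also lay furthest from the stiff libraries on the first principal component of all genes (-19.6). Not all called markers shared this, as Tecta was lowest in soft replicate 2 and Gjb6 in soft replicate 1. The part of supporting and prosensory cells in the Ush1c and Calb2 values was not tested.

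Neurons also use Calb2, and of 11 measured neuron markers 0 rose and 1 fell, the growth cone gene Gap43 (limma adjusted p = 0.0237). Before adjustment 2 were higher (Map2 and Nefm) and 3 lower (Gap43, Syt1 and Ntrk2) at a p under 0.05, and limma-voom called 1 higher (Map2) and 2 lower (Gap43 and Ntrk2), so these markers went both ways. Their summed level was 22.3 to 34.4 FPKM in soft and 17.2 to 19.9 FPKM in stiff libraries, and the part of neurons in the Calb2 values was not tested. Epithelia with a brush border use Ush1c, Espn and Myo6, and of 14 measured brush border genes 0 were called (limma; 4 at an unadjusted p under 0.05, and 2, Ezr and Myo1d, called by limma-voom). Their summed level was 197 to 229 FPKM in soft and 227 to 264 FPKM in stiff libraries, with overlap. Vil1, the villin gene that defines the brush border, had 2 to 10 reads per library. Blood cells use Gfi1 and Ikzf2, and of 7 measured blood and immune markers 0 were called (limma; 1 at an unadjusted p under 0.05, and 1, Ikzf3, called by limma-voom). Their summed level was 5.28 to 7.21 FPKM in soft and 5.96 to 8.36 FPKM in stiff libraries, most of it Cd68. Of glial markers 1 of 11 rose (Pmp22), with 5 at an unadjusted p under 0.05 and 3 higher by limma-voom (Pmp22, Erbb3 and S100b). Of mesenchyme markers 1 of 14 fell (Col1a2), with 6 at an unadjusted p under 0.05, and by limma-voom 1 was higher (Dcn) and 2 lower (Col1a2 and Col3a1). Of endothelial markers 1 of 9 fell (Kdr), with 3 at an unadjusted p under 0.05 and 2 lower by limma-voom (Kdr and Vwf).

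Gene Ontology terms in the deposited table were also read for the 8 genes. Such terms describe roles like those the set was named for, so they are not an independent link. A stereocilium term is carried by Myo7a, Ush1c, Calb2, Espn and Clrn1, 5 of the 8, and by 72 genes in all. A brush border term is carried by Myo6, Ush1c and Espn, and by 110 genes in all. Of the 72 stereocilium genes 4 rose and 1 fell, or 6.94% called, against 3.39% of all genes, a difference that was not tested. Beside Ush1c these were the protocadherin Fat4, the Notch effector Hey1 and Pjvk, the gene of pejvakin, all higher, and Hes1, lower, all named after their values were seen. Of the 110 brush border genes 2 rose and 0 fell, or 1.82% called, Ush1c and, named after its values were seen, the sodium-proton exchanger Slc9a2. Microvillus terms are carried by Myo6, Myo7a, Ush1c, Espn and Clrn1, and of their 97 genes 3.09% were called, all 3 higher. The same 5 genes carry a term for the perception of sound, and of its 139 genes 11 rose and 1 fell, or 8.63% called. This was also not tested against the 3.39% of all genes, and its called genes include Ush1c and supporting cell markers counted above, such as Sox2.

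The 3 genes with profiles closest to that of Ush1c across the 6 libraries were Prrg3, Tiam2 and Bik. Likeness was the Euclidean distance between log2(FPKM + 1) values centred on each gene's mean, among 11658 genes with a mean of at least 1 FPKM. The distances were 0.103, 0.156 and 0.166, against a median of 0.792. Prrg3 was at 9.91, 10.3 and 8.44 FPKM in soft and 15.8, 14.2 and 14.2 FPKM in stiff replicates 1 to 3. In it, as in Ush1c, soft replicate 3 was the lowest library and stiff replicate 1 the highest.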

How the data were processed

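RNA-seq of 6 libraries was read from 1 deposited table. Per the submitters' processing notes, TopHat2 2.1.1, the build mm10 and DESeq2 were used. The read counter and annotation are not given in the sources used here. Expression per library was deposited by the authors and is taken as FPKM from the values because the header does not name a unit. Per the file headers, the table also holds a base mean (a signal: the mean normalized count), a log2 fold change with its error, a ratio (fold change), a test score, and p-values and q-values of the authors' comparison of stiff against soft gels.

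Whole reads were rebuilt from FPKM and base mean, and 100.0% of values came out whole within 0.05 reads. A count of 0 allows up to 3 reads, and this and other counting limits cover counting error only. The planned test was limma 3.58.1 (R 4.3.3, eBayes with trend) on log2(FPKM + 1) over all 15016 genes, without a filter and without a block. It and the rebuilding were tested on simulated data. Rebuilt reads were also tested by limma-voom, with TMM factors computed from their published definition. The other alternatives were 2 filters at a mean of 1 FPKM, pseudocounts of 0.1 and 0.5, median-ratio scaling, robust eBayes, a replicate block, and leaving out each library. Positions are from GENCODE M21 (mm10).

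The 8 genes, the pairs of them compared as ratios and all lists were chosen with earlier results of these data known. Named genes were the 8 genes, called genes of the 5 hair cell lists with the most abundant gene of each, for each other list and direction the called gene of lowest adjusted p (of supporting cell markers, Sparcl1, limma adjusted p = 0.0122), the classical hair cell genes Atoh1, Pou4f3, Otof, Tmc1, Cdh23, Pcdh15 and Slc26a5, and Sox2 and Lgr5. The 3 genes nearest in profile to each called gene of the 8 were also named. Of the genes this rule takes, 1 is not reported here. Barhl1, Slc17a8, Vil1, Cd68, Epyc, S100a1 and Epcam, and the genes named for a limma-voom call or an unadjusted p alone, were added after their values were seen.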

Additional observations from a re-analysis of the deposited data

How the results depend on the processing

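Ush1c kept its direction under all 14 alternatives without those that pair limma-voom with a left-out library, and was called in 9, and Calb2 kept its direction in 14 and was called in 5. Of the 8 genes, 2 (Ush1c and Calb2) were called with either filter on low values, with limma-voom on rebuilt reads and with the replicate block. Leaving out single libraries gave 0 to 2 called genes of the 8, or 1 to 2 with limma-voom, an alternative added after the data were seen. Of the 67 other hair cell and bundle genes, 7 were called with limma-voom (3 higher and 4 lower), 0 to 14 without single libraries and 1 to 15 without single libraries by limma-voom. Over all genes, 994 were called with limma-voom against 509, 4 to 1454 without single libraries, and 200 to 2014 without single libraries by limma-voom (271 without stiff replicate 1). All fits with a library left out have fewer degrees of freedom. The cause of the rise without soft replicate 1, and of the fall without each other library, was not tested. Directions turned for Myo7a (log2 difference -0.0642 to 0.0423 without single libraries, and by limma-voom 0.0472, 0.0150 and 0.0463 when soft replicate 2, stiff replicate 2 or stiff replicate 3 was left out) and Ikzf2 (-0.00693 to 0.11, and by limma-voom -0.0434 without soft replicate 1), neither called in any fit. Without soft replicate 1 the log2 difference was 0.06 for Myo6, -0.04 for Myo7a, -0.24 for Espn, 0.19 for Clrn1 and 0.13 for Gfi1. None of these was called, with limma adjusted p from 0.111 to 0.855. Clrn1, Ikzf2 and Gfi1 lay under both filters and have no value there.

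Whether the replicate numbers pair the libraries is not known. Deviations of same-numbered libraries from their group means correlated at 0.00606, 0.22 and -0.21 across genes with a mean of at least 1 FPKM. Not every library correlated best with its own number. Deviations within a group cancel out, so these correlations depend on each other and cannot decide the question. With the replicate block 446 genes were called, and Calb2 had a limma adjusted p of 0.0412. Depth limits Gfi1 and Clrn1, whose libraries hold at most 9 and 18 reads.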
